A study of Mus musculus with 28 samples.

Results

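A group of 6 genes that cyclic AMP (cAMP) switches on, and whose products act back on cAMP or calcium signalling, was followed in whole pituitary glands of 28 mice after sleep loss and restraint. They were Crem, Sik1, Pde4b, Pde4d, Rgs2 and Gem, 6 of the 32594 genes in the count table. These genes were picked by name as known targets of cAMP and of its transcription factor CREB, with earlier results of these data known. In the pituitary, releasing hormones such as corticotropin-releasing hormone act on receptors coupled to the G protein Gs, which drives adenylyl cyclases to make cAMP. Protein kinase A then phosphorylates CREB, and CREB with its CRTC coactivators turns on a first wave of genes within minutes. Part of that wave limits the signal: ICER, a short repressor made from Crem, occupies the sites that CREB binds, SIK1 keeps the CRTC coactivators out of the nucleus, the type 4 phosphodiesterases of Pde4b and Pde4d break down cAMP, RGS2 dampens signalling by G proteins, and GEM restrains voltage-gated calcium channels.

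The mice were C57BL/6J, 8 weeks of age on arrival and of both sexes. They were home cage controls, mice restrained for 20 min, mice kept on columns above water for 12 h of paradoxical sleep deprivation (PSD, which interrupts REM sleep), and mice given both. Glands were taken 18 h after the end of PSD, and 10 min after the end of restraint in the restrained mice. Each female group held 4 mice, and the males numbered 4 controls, 2 restrained mice, 3 PSD mice and 3 given both. All mice, controls included, had been adapted to the water tanks on the days before. RNA of whole glands mixes all lobes and cell types, so that fewer cells of a type and less RNA per cell cannot be told apart, and a count per gene cannot tell ICER from the longer forms of Crem or one phosphodiesterase isoform from another.

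The depth of the 28 libraries ran from 14024465 to 52948531 gene counts, and the lowest count of any member in any mouse was 101. Levels are given as CPM, the count scaled to library size with TMM factors. A gene is called where the adjusted p of edgeR's quasi-likelihood test (Benjamini-Hochberg over all genes tested) was 0.05 or lower and the log2 fold change was 0.322 or more in size. These limits are those of the study's methods, which set them on DESeq2 values shrunken toward 0 and on genes of at least 1 TPM. Here they are set on unshrunken edgeR values after another filter, and a shrunken value can be far smaller, as the 0.71 for Gem in PSD + restraint males. Each library is 1 mouse, and p-values set a difference between group means against the spread between mice within groups. The study housed mice by sex in shared cages and placed cage mates together in a tank for PSD. Which mice shared a cage or tank is not given in the labels. Effects of cage or tank therefore cannot be told apart from those of treatment. All 6 members passed the filter on low counts, in each sex and in all mice. Pituitary markers (Gh, Prl, Pomc, Tshb, Lhb) were present in every gland. A set of 3 mice stood apart in lists of marker genes. Male control mouse 1 had a summed 377 CPM of the 3 intermediate lobe markers Pax7, Pcsk2 and Oacyl, against at least 1246 CPM in every other male, with none of the 3 at 0. Female PSD mouse 1 and female PSD + restraint mouse 4 had 258 and 189 CPM of 6 forebrain markers, against at most 102 CPM in the other females. Where a member gained or lost a call without these mice, the value without them is given.

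The 6 genes lie on 5 chromosomes. On GRCm38 (GENCODE M21), Gem spans chr4:11704457-11714752 on the plus strand, Pde4b chr4:102087543-102607259 plus, Pde4d chr13:108449948-109953461 plus, Sik1 chr17:31844250-31855804 minus and Rgs2 chr1:143999338-144004161 minus. All are protein-coding, and in the annotation no exon of these 5 overlaps an exon of another gene. An exon of Crem is overlapped by Gm6225 on the opposite strand, and the strand setting used for counting is not given in the sources used here. RefSeq promoter windows of 300 bases, from 250 before to 50 after a transcription start, were at hand for Pde4b (4 starts), Pde4d and Rgs2. The windows below are read 5′ to 3′ on the gene's strand. Each half-site of the cAMP response element (TGACG, or CGTCA on the other strand) is in capitals. Of the 4 Pde4b windows, the 1 with a half-site is printed. The annotation holds 13 transcripts of Pde4b and 20 of Pde4d. The windows of these 2 genes all lie inside the gene spans given above, so starts outside the windows are not shown.
Pde4b, chr4:102421305-102421604 (GRCm38.p6, plus strand): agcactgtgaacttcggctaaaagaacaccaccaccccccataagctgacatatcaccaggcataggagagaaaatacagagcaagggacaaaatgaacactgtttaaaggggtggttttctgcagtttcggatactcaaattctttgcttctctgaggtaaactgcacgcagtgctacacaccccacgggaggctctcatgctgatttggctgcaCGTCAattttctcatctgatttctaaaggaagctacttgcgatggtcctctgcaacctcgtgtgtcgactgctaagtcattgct
Pde4d, chr13:108653927-108654226 (GRCm38.p6, plus strand): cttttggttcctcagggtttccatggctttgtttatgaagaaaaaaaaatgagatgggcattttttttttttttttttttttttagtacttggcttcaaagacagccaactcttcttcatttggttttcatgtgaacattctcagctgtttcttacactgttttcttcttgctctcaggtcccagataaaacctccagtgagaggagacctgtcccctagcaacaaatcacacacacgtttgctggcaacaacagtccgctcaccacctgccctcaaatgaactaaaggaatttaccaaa
Rgs2, chr1:144004100-144004399 (GRCm38.p6, minus strand): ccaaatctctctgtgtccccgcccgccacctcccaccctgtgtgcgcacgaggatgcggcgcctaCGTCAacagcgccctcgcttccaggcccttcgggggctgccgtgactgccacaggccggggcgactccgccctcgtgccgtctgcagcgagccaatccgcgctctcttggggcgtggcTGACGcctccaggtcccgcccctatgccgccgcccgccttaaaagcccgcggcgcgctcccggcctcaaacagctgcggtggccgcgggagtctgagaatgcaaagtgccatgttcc
The Rgs2 window holds 2 half-sites, whose first bases lie at -185 and -67 from the start. This Pde4b window, the most upstream of the 4, holds 1, at -34, and the other 3 Pde4b windows and the Pde4d window hold none. No window of the 3 genes has the full element TGACGTCA. Of all 32851 RefSeq windows of this length, 20.8% hold at least 1 half-site, 5.01% hold at least 2 and 1.79% hold the full element, so a half-site is a common string of letters and is given as a description only.

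At rest Rgs2 and Crem were the most abundant members and Gem the least. In TPM, which divides each count by transcript length, female controls had 72.2 ± 8.22 TPM of Rgs2, 47.0 ± 7.75 of Crem, 15.8 ± 0.476 of Pde4d, 14.2 ± 3.10 of Sik1, 10.5 ± 0.672 of Pde4b and 3.85 ± 0.812 of Gem (SD, n = 4). In this order the mice overlapped between Pde4d and Sik1 and between Sik1 and Pde4b. Male controls gave 70.1 ± 10.1 TPM of Rgs2 and 49.3 ± 15.3 of Crem, then 13.5 ± 4.15 of Pde4d, 11.3 ± 1.41 of Pde4b, 8.90 ± 4.63 of Sik1 and 4.13 ± 2.01 of Gem (SD, n = 4), and there only the step from Crem to Pde4d was free of overlap. The order changed between groups. By mean, Rgs2 stayed first in every female group and, in males, after restraint alone and after PSD. In PSD males, without restraint, the means of Sik1 and Gem already lay above those of Pde4b and Pde4d. The mice overlapped in each of these pairs except Sik1 and Pde4b. In PSD + restraint males Crem came first at 132 ± 7.91 TPM, above Rgs2 at 109 ± 11.9, and Gem, the lowest member at rest, followed at 61.3 ± 19.5 (SD, n = 3), above Sik1 at 56.3 ± 19.0 by less than the spread between mice. In PSD + restraint females the order was Rgs2, Crem, Sik1, Gem, Pde4b and Pde4d, and Gem had 36.0 ± 21.8 TPM (SD, n = 4).

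Gem, Sik1, Crem and Rgs2 rose in females after restraint alone, 4 of the 6 members, where 0.543% of all genes tested in females were called. In males Gem and Sik1 rose, 2 of 6, against 0.296% of all genes. After PSD + restraint, 5 of 6 rose in each sex (all except Pde4d), against 2.2% of genes in females and 2.56% in males. After PSD alone no member was called in either sex, where 0.0277% of genes in females and 0.00547% in males were called. Every call was a rise. The members were chosen with earlier results of these data known, so their counts beside the shares of all genes are a description only. In females every restrained mouse, with or without PSD, lay above every unrestrained mouse for Gem, Sik1, Crem and Rgs2, and in males every restrained mouse lay above every control for these 4 genes. The share of all genes whose groups lie apart in this way was not counted. Such separations, here and below, are therefore a description only. The 3 comparisons of a sex share its control mice and are therefore not independent of each other.

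**Figure D1:**
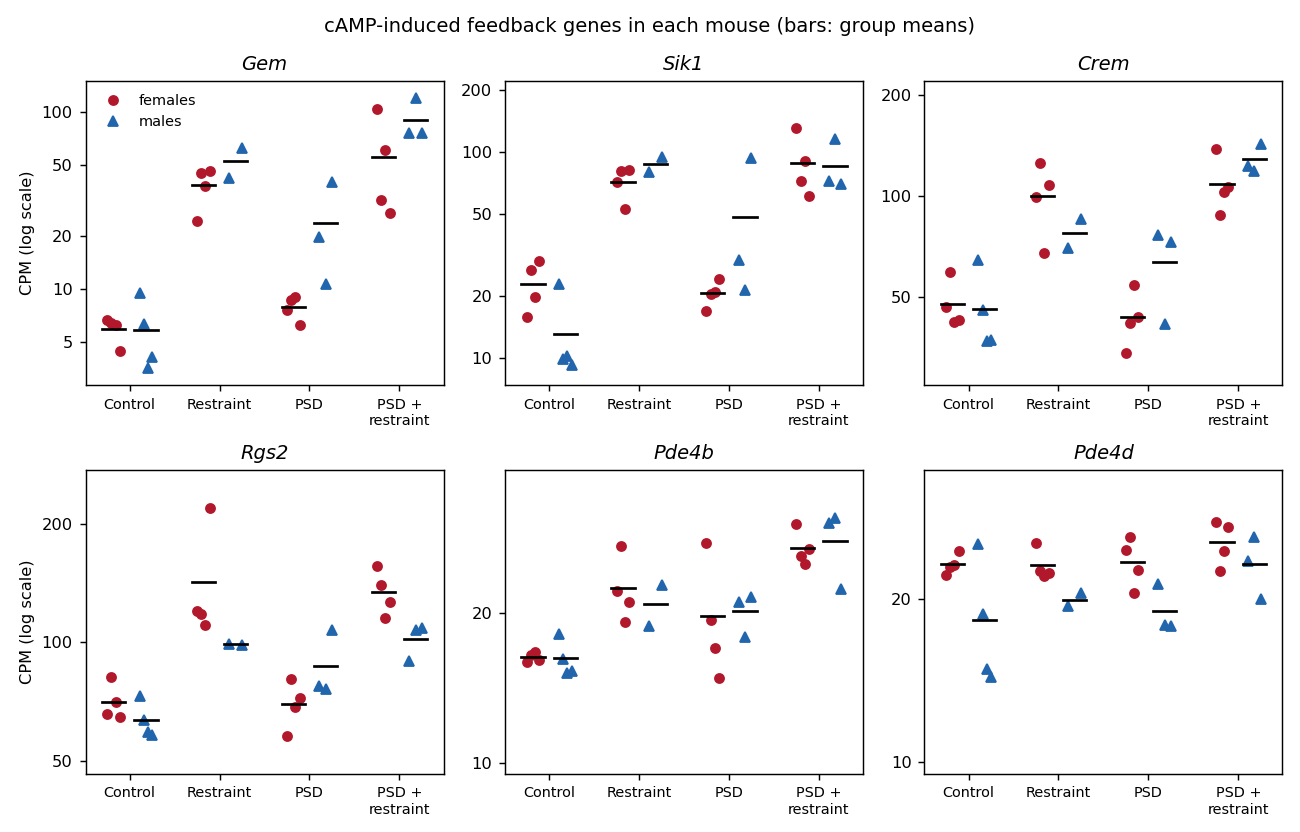
CPM of the 6 genes in each mouse on a log scale, by treatment, with females as red circles, males as blue triangles and group means as black bars (4 mice per group, except 2 restrained, 3 PSD and 3 PSD + restraint males). For Gem, Sik1, Crem and Rgs2 all restrained females sit above all unrestrained females and all restrained males above all male controls, while Pde4d lies between 14.4 and 27.7 CPM throughout.

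Gem, a small GTPase that curbs calcium entry, changed most. Female controls had 6.65, 6.47, 6.24 and 4.48 CPM and restrained females 24.2, 45.2, 38.4 and 46.5 CPM. Mouse 1 was the lowest of the restrained females, and no value came near those of the controls. Gem rose by 2.70 (standard error 0.36, adjusted p = 0.0013) on the log2 scale, a 6.50-fold rise. PSD + restraint females had 104, 31.7, 60.8 and 26.9 CPM, with mouse 1 far above the rest, and rose by 3.22 (standard error 0.36, adjusted p = 0.00017). PSD females had 7.64, 8.68, 9.0 and 6.29 CPM, partly within the range of the controls, at 0.40 (adjusted p = 0.576). In males the controls had 9.51, 6.32, 3.59 and 4.11 CPM, with mouse 1 highest, and the restrained mice 42.4 and 63.0 CPM. Both restrained males lay above all controls, with a rise of 3.14 (standard error 0.43, adjusted p = 0.00709). That call rests on few mice: without restrained mouse 3 it was 2.83 (adjusted p = 0.116), and with edgeR's robust estimation the adjusted p was 0.0977. PSD + restraint males had 76.5, 119.9 and 76.0 CPM, the highest group of all, at 3.93 (standard error 0.41, adjusted p = 0.000511) or 15.2-fold. PSD males had 19.7, 10.7 and 40.2 CPM, and all 3 lay above all 4 controls, at 1.97 (standard error 0.41, adjusted p = 0.161), which missed the threshold.

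Sik1, the kinase that holds back the CRTC coactivators, followed next. Female controls had 15.8, 26.7, 19.9 and 29.5 CPM, restrained females 71.1, 80.6, 52.7 and 81.9 CPM and PSD + restraint females 131, 72.2, 89.7 and 61.0 CPM. Both restrained groups lay wholly above the controls, at log2 fold changes of 1.65 (standard error 0.23, adjusted p = 0.00206) and 1.95 (standard error 0.23, adjusted p = 0.000258). PSD females, with 16.9, 20.5, 20.9 and 24.3 CPM, overlapped the controls, at -0.14 (adjusted p = 0.783). In males the controls had 23.0, 9.99, 10.3 and 9.29 CPM, so that mouse 1 was at more than 2 times the level of any of the other 3. Restrained males had 79.5 and 94.8 CPM and PSD + restraint males 71.8, 115 and 70.1 CPM, all above all controls. The log2 fold changes were 2.72 (standard error 0.48, adjusted p = 0.0365) and 2.70 (standard error 0.45, adjusted p = 0.00833). The first of these depended on single mice: it lost its call without any one of control mice 2, 3 and 4, restrained mice 2 and 3 and PSD + restraint mouse 1, with adjusted p from 0.0572 to 0.299, and without control mouse 1 it was 3.15 (adjusted p = 0.0129). PSD males had 29.9, 21.4 and 93.8 CPM. Mouse 3 of that group had the level of a restrained mouse, the other 2 lay near control mouse 1, and the difference from controls, 1.87 (standard error 0.45, adjusted p = 0.23) in log2 units, missed the threshold. Without PSD mouse 3 it was 0.95 (adjusted p = 0.76).

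Crem, the gene of the repressor ICER, rose in 3 of the 4 comparisons of restrained groups with controls. Female controls had 46.5, 59.1, 42.2 and 42.5 CPM and restrained females 99.5, 125, 67.4 and 108 CPM. The ranges were apart, with restrained mouse 3 the closest to the controls, and the rise was 1.08 (standard error 0.18, adjusted p = 0.00988) on the log2 scale, which lost its call without control mouse 3 (adjusted p = 0.0563). PSD + restraint females had 138, 87.7, 103 and 107 CPM, at 1.20 (standard error 0.18, adjusted p = 0.0026). PSD females had 34.1, 41.8, 54.3 and 43.4 CPM, around the controls, at -0.12 (adjusted p = 0.752). Male controls had 64.2, 45.7, 36.8 and 37.0 CPM and restrained males 70.1 and 85.4 CPM. Both restrained males were above the highest control, by a margin that was small for mouse 2, and the difference, 0.76 (standard error 0.24, adjusted p = 0.515) in log2 units, did not pass. PSD + restraint males had 123, 119 and 143 CPM, the highest of the 8 groups, at 1.48 (standard error 0.21, adjusted p = 0.00338) or 2.79-fold. PSD males, with 76.4, 41.4 and 72.9 CPM, overlapped the controls, at 0.47 (adjusted p = 0.561).

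Rgs2, which dampens G protein signalling and was the most abundant member at rest per transcript length, moved less. Female controls had 65.8, 81.4, 70.3 and 64.5 CPM and restrained females 120.0, 118, 111 and 219 CPM. All 4 restrained females were above all controls, and mouse 4 stood far above the other 3. Its rise was 1.02 (standard error 0.18, adjusted p = 0.0138) on the log2 scale, and without restrained mouse 4 it was 0.73 (adjusted p = 0.0105). The call was lost without control mouse 1, 3 or 4, at adjusted p from 0.0647 to 0.0669, and with only the 2 groups in the fit (adjusted p = 0.109). PSD + restraint females had 156, 140.1, 115 and 127 CPM, at 0.94 (standard error 0.18, adjusted p = 0.0125), a call lost without control mouse 4 or PSD + restraint mouse 1 (adjusted p = 0.0514 and 0.0531). PSD females had 57.9, 80.4, 68.6 and 72.0 CPM, within the range of the controls but for mouse 1 below it, at -0.0084 (adjusted p = 0.988). Male controls had 72.8, 63.4, 59.2 and 58.0 CPM and restrained males 99.2 and 98.3 CPM. The restrained pair was nearly equal and above all controls, at 0.64 (standard error 0.13, adjusted p = 0.105), which missed the threshold here. It passed without control mouse 1 (adjusted p = 0.043) or PSD mouse 3 (adjusted p = 0.017). It also passed with DESeq2 (adjusted p = 0.002), without a filter on low counts (adjusted p = 0.0383) and with only the 2 groups in the fit (adjusted p = 0.0432). PSD males had 77.2, 76.0 and 108 CPM, all above all controls, at 0.46 (adjusted p = 0.283), and without PSD mouse 3 at 0.28 (adjusted p = 0.778). PSD + restraint males had 89.7, 107 and 109 CPM, at 0.69 (standard error 0.12, adjusted p = 0.0105), a call lost without PSD + restraint mouse 2 (adjusted p = 0.0577).

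Of the cAMP-degrading enzymes, Pde4b rose after PSD + restraint in both sexes and Pde4d was called in no comparison. Pde4b had 15.9, 16.4, 16.7 and 16.0 CPM in female controls, 22.1, 27.2, 19.2 and 21.0 in restrained females, 27.5, 19.3, 17.0 and 14.8 in PSD females and 30.1, 26.0, 25.0 and 26.8 in PSD + restraint females. The controls were the tightest group of all, both restrained groups lay above them, and PSD mouse 1, one of the 2 females with high forebrain markers, was as high as a PSD + restraint mouse. Pde4b was called after PSD + restraint, at 0.74 (standard error 0.15, adjusted p = 0.0155), and not after restraint, at 0.47 (standard error 0.15, adjusted p = 0.233). The first call was lost without control mouse 4 or PSD + restraint mouse 1, at adjusted p = 0.0544 and 0.0611. In males it had 18.1, 16.2, 15.2 and 15.2 CPM in controls, 18.8 and 22.7 after restraint, 21.0, 17.8 and 21.5 after PSD and 30.3, 30.9 and 22.3 after PSD + restraint. The last group lay above all controls, at 0.79 (standard error 0.12, adjusted p = 0.00428), with mouse 3 nearest to them, and restraint alone gave 0.36 (adjusted p = 0.758). Pde4d had 22.1, 22.8, 23.0 and 24.5 CPM in female controls, 25.3, 22.5, 22.0 and 22.2 after restraint, 24.6, 25.9, 20.4 and 22.6 after PSD and 27.7, 22.4, 24.5 and 27.1 after PSD + restraint. These groups overlapped throughout, and the log2 fold changes were 0.0022 (standard error 0.083, adjusted p = 0.999) after restraint and 0.14 (standard error 0.084, adjusted p = 0.365) after PSD + restraint. Male controls had 25.2, 18.7, 14.8 and 14.4 CPM of Pde4d, with mouse 1 above the rest, and PSD + restraint males 23.4, 26.0 and 20.0 CPM, at 0.34 (standard error 0.17, adjusted p = 0.312). Without control mouse 1 that value was 0.54 (adjusted p = 0.0337) and passed. Restrained males, with 19.4 and 20.5 CPM, and PSD males, with 21.2, 17.9 and 17.8 CPM, lay within the range of the controls. Whether the responses of Pde4b and Pde4d differ was not tested.

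With both sexes in 1 model, the 5 members other than Pde4d were called after restraint, after both treatments and between PSD + restraint and PSD alone, where 1.14%, 5.46% and 2.01% of the 18936 genes were called. Without the 3 mice of unusual markers Rgs2 lost its call between PSD + restraint and PSD alone, at 0.55 (adjusted p = 0.0549), and 4 members were called. After PSD + restraint the log2 fold changes were 3.56 (adjusted p = 2.95e-08) for Gem, 2.27 (adjusted p = 1.85e-05) for Sik1, 1.33 (adjusted p = 3.93e-06) for Crem, 0.84 (adjusted p = 0.000238) for Rgs2 and 0.76 (adjusted p = 7.54e-06) for Pde4b. These 5 calls after PSD + restraint held without any single mouse. Pde4d gave 0.23 (adjusted p = 0.0967). After restraint alone Pde4b gave 0.43 (adjusted p = 0.0236), a call lost without female restrained mouse 2 (adjusted p = 0.0964) or male restrained mouse 3 (adjusted p = 0.0533).

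**Figure D2:**
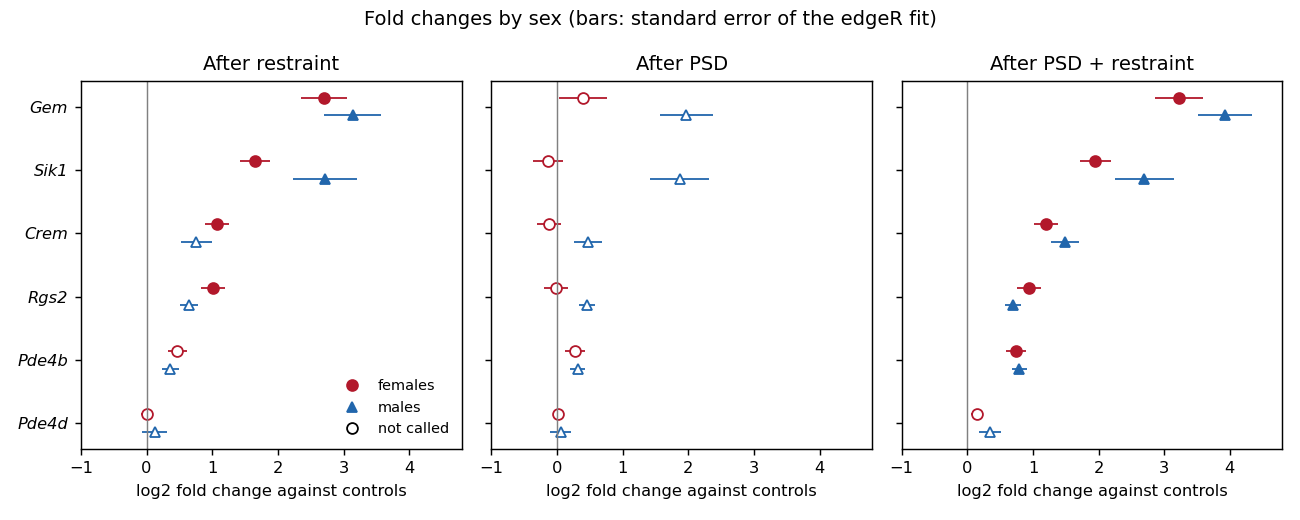
Log2 fold change of each gene against the home cage controls of its own sex, on the horizontal axis, for restraint, PSD and their combination, with females as red circles, males as blue triangles, bars for the standard error of the edgeR fit and open symbols for values that were not called. Gem lies furthest right in every panel, no symbol is filled after PSD alone, and Pde4d is open throughout.

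PSD alone, 18 h after it ended, gave no called member in edgeR's test. In females none of the 6 had an unadjusted p under 0.05 either, where 19.8% of all genes did, and DESeq2 called 0. In males 5 of the 6 (all except Pde4d) had an unadjusted p under 0.05, all with higher means, where 8.85% of all genes did, and DESeq2 called 1, Rgs2. Gem had an adjusted p of 0.0173 in DESeq2 there and was not called because its shrunken log2 value, 0.26, was under 0.322. In all mice, where 0.671% of genes were called after PSD, 0 members were called, 3 had an unadjusted p under 0.05 (Gem, Pde4b and Sik1), where 17.6% of all genes did, and DESeq2 called 0, with Gem at an adjusted p of 0.0226 and a shrunken log2 value of 0.30. Gem was closest there, at 1.22 (standard error 0.32, adjusted p = 0.0637), and passed without female PSD mouse 4 (adjusted p = 0.035) or female control mouse 1 (adjusted p = 0.0461). Without female PSD mouse 4, Pde4b passed too, at 0.35 (adjusted p = 0.0483). The values of PSD males spread widely, and PSD mouse 3 was the highest of them for Gem, Sik1, Rgs2 and Pde4b. Without it and without control mouse 1, Gem gave 1.68 (adjusted p = 0.247) and Sik1 1.39 (adjusted p = 0.125) in males, and neither was called.

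PSD before restraint was compared with restraint alone to ask whether sleep loss altered the response of these genes. Restraint raised Gem, Sik1, Crem and Rgs2 in PSD females, 4 of 6 members against 0.941% of genes, at log2 fold changes of 2.82 (adjusted p = 0.000671), 2.09 (adjusted p = 0.000251), 1.32 (adjusted p = 0.00142) and 0.95 (adjusted p = 0.0174). The call of Rgs2 was lost without PSD mouse 1 or 3, without PSD + restraint mouse 1, and without the 3 mice of unusual markers (adjusted p from 0.0618 to 0.115). Pde4b, at 0.46 (adjusted p = 0.219), passed without PSD mouse 1, at 0.67 (adjusted p = 0.0107). In PSD males restraint gave 0 called members against 0.285% of genes, with 3 at an unadjusted p under 0.05 (Gem, Crem and Pde4b) where 10.3% of genes were, and DESeq2 called those 3. Gem gave 1.96 (adjusted p = 0.087), Crem 1.01 (adjusted p = 0.114) and Sik1 0.83 (adjusted p = 0.577). Without control mouse 1 and PSD mouse 3, Gem, Sik1 and Crem passed, at 2.60 (adjusted p = 0.00475), 1.74 (adjusted p = 0.00475) and 1.13 (adjusted p = 0.04). That choice was made after seeing the data. PSD mouse 3 was the highest PSD male for Gem and Sik1, so leaving it out necessarily raised both values. These p-values are therefore a description only. With single mice left out, Sik1 was called in 0 of 12 fits, Gem in 2 and Crem in 1.

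**Figure D3:**
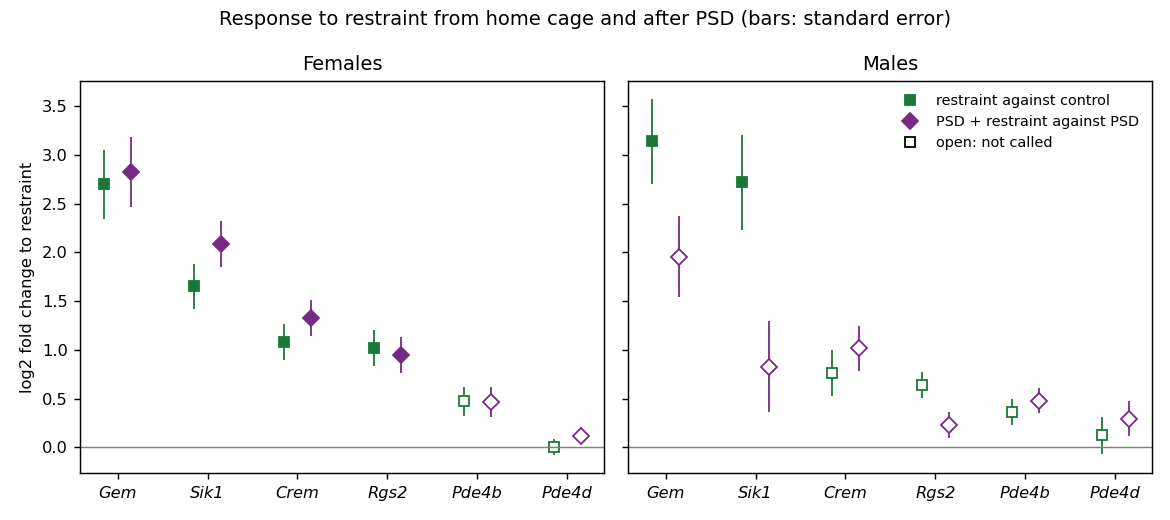
Log2 fold change to restraint from home cage (green squares) and among PSD mice (purple diamonds) for each gene, in females and in males, with bars for the standard error and open symbols for values that were not called. In females the 2 symbols of a gene lie close together, and in males those of Gem and Sik1 lie apart, by 1.19 and 1.89 log2 units.

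The difference between these responses, the interaction of PSD with restraint, was called for no member, with 0 called in females (0% of genes), males (0%) and all mice (0%), and DESeq2 called 0 as well. In females 0 members had an unadjusted p under 0.05 (4.24% of all genes did), and the values lay between -0.069 for Rgs2 and 0.44 for Sik1. In males 2 members did, where 3.84% of all genes did: Sik1, at -1.89 (standard error 0.68, adjusted p = 1) with an unadjusted p of 0.0153, and Rgs2, at -0.41 (standard error 0.19, adjusted p = 1) with 0.0462. Gem gave -1.19 (standard error 0.60, adjusted p = 1). The Sik1 value rests in part on PSD mouse 3, without which it was -0.98. In all mice 0 had an unadjusted p under 0.05 (3.92% of all genes did), and Gem and Sik1 gave -0.61 and -0.66. Set directly against each other, PSD + restraint and restraint alone also gave 0 called members in females (0.0332% of genes called, 0 members at an unadjusted p under 0.05), in males (0.00547%, 2 members, Crem and Pde4b) and in all mice (0.0951%, 1 member, Pde4b), and DESeq2 called 0 in each. Of all genes, 14.1%, 10.5% and 13.5% had an unadjusted p under 0.05 in these comparisons. Pde4b was higher with PSD by 0.33 (standard error 0.11, adjusted p = 0.209) in all mice. In males Crem was higher by 0.72 (standard error 0.26, adjusted p = 0.372) and Gem by 0.79 (standard error 0.45, adjusted p = 0.554). For both genes all 3 PSD + restraint males lay above both restrained males, which is a description only.

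The sexes were compared directly in a model with 1 mean for each sex and treatment. No member's response differed between the sexes in edgeR's test, 0 of 6 for restraint (0% of genes called), for PSD (0%) and for PSD + restraint (0%), and DESeq2 called 0. Both Sik1 and Gem, 2 members, had an unadjusted p under 0.05 for PSD, where 10.8% of all genes did, and none did for the other 2 treatments (4.25% and 7.2% of genes). The response of Sik1 to PSD was lower in females than in males by 2.01 (standard error 0.53, adjusted p = 0.301), and that of Gem by 1.58 (standard error 0.60, adjusted p = 0.378), in log2 units. PSD females had 16.9 to 24.3 CPM of Sik1 and PSD males 21.4 to 93.8 CPM, so the ranges overlapped. Leaving out PSD male mouse 3 brought the Sik1 difference to -1.09 (adjusted p = 0.492) and the Gem difference to -0.95 (adjusted p = 0.609). In home cage controls 0 members differed between the sexes, where 10.7% of genes did, 2 of 6 members had an unadjusted p under 0.05, beside 27.8% of all genes, and DESeq2 called 0. These 2 were Pde4d, higher in females by 0.34 (standard error 0.13, adjusted p = 0.0745), and Sik1, by 0.79 (standard error 0.36, adjusted p = 0.153). Without male control mouse 1, the mouse with low intermediate lobe markers, both were called higher in females, at 0.53 (adjusted p = 0.00152) and 1.22 (adjusted p = 0.0366).

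Some mice were high or low in their group across most members. Male control mouse 1 was the highest male control for all 6 genes, and PSD + restraint female mouse 1 the highest of its group for all 6. Restrained female mouse 3 was the lowest of its group for 5 of 6, and PSD male mouse 2 for 5 of 6. Male PSD mouse 3 was the highest PSD male for 4 of the 6 members and for 6 of 9 other CREB-responsive genes, with Nr4a1 at 172, 84.1 and 471 CPM in PSD mice 1, 2 and 3, against 49.0, 21.8, 21.1 and 13.6 CPM in the controls. Marker lists of pituitary cells also moved with the groups, and their part in the members' values was not tested. The summed intermediate lobe markers were at 1193 to 1819 CPM in female controls, 1129.8 to 2590.2 after restraint, 1718 to 4220.3 after PSD and 1765 to 2866 after PSD + restraint. In males they were at 377 to 1726, 1246 to 1923, 1737 to 2449 and 1789 to 3309 CPM. Every male with PSD, restrained or not, thus lay above every male control, while the female ranges overlapped. The corticotrope and melanotrope list (Pomc, Tbx19, Pcsk2 and Pax7, none at 0) lay wholly above the controls in every group with PSD. It summed to 37362 to 69330.4 CPM in female controls, 40174 to 96088 after restraint, 71463 to 167377 after PSD and 71645 to 103324 after both, and to 11723 to 64719, 39849 to 69608, 67045 to 103341 and 67451 to 128344 CPM in the male groups in the same order. This sum is nearly all Pomc, at a median of 69243 CPM over all mice. The medians were 1080 CPM for Pcsk2, 118 for Tbx19 and 51.5 for Pax7. The sum therefore does not show whether these other genes moved. In PSD + restraint females the lactotrope marker Prl, at 133921 to 155694 CPM, lay wholly below the controls, at 159082 to 231705 CPM. In the same females 5 posterior lobe markers (75.6 to 94.98 against 48.6 to 66.5 CPM) and 3 macrophage and leukocyte markers (36.7 to 45.7 against 31.99 to 34.6 CPM) lay wholly above them. In restrained males so did the thyrotrope marker Tshb (450.1 to 507 against 265 to 442 CPM), by a narrow gap and in 2 mice against 4. All lists were looked at in all groups, and how many would lie apart by chance was not tested. No other list lay wholly apart from the controls of its sex.

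Among the genes of the other steps of the pathway, calls were near the share over all genes. None of 7 receptors coupled to Gs, among them Crhr1, Ghrhr and Vipr1, none of 11 genes of Gs and adenylyl cyclases and none of 7 CREB factors and coactivators was called by edgeR against controls in females, males or all mice. Between 0 and 3 of the receptors, 0 and 4 of the Gs and cyclase genes and 0 and 3 of the CREB list had an unadjusted p under 0.05 in any of the 9 comparisons, where 5.07% to 25.5% of all genes did, and DESeq2 called 1 receptor, Vipr1, in females after PSD and none otherwise. The receptors had their highest median in those PSD females, 0.55 log2 units. Of 9 subunits and inhibitors of protein kinase A, Pkib, an inhibitor, rose after PSD + restraint in all mice, at 0.59 (adjusted p = 0.037). Of 12 phosphodiesterases of other families, Pde1a rose after PSD + restraint in males, at 0.62 (adjusted p = 0.0185), and in all mice, at 0.41 (adjusted p = 0.0148), and Pde7b fell in all mice, at -0.63 (adjusted p = 0.0181). These 3 were the calls among the 46 genes of the 5 lists in all mice after PSD + restraint, 6.52% beside 5.46% of all genes. The list medians after PSD + restraint lay between -0.13 and 0.38 over these 5 lists in females and males, beside all-gene medians of 0.0076 and -0.0058.

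Relatives of the members moved in both directions. Of 12 such genes, Rgs1 rose and Rgs16 fell in females after restraint and after PSD + restraint. Rgs1, which like Rgs2 speeds the shut-off of G proteins, went from 0.148 ± 0.102 to 0.711 ± 0.0716 CPM in females (SD, n = 4 each), a low level, at 2.14 (adjusted p = 0.0125), and in males at 2.48 (adjusted p = 0.026), calls that DESeq2 did not make. Rgs16 went from 36.4 ± 4.73 CPM to 26.7 ± 1.31 in restrained females (SD, n = 4 each), at -0.44 (adjusted p = 0.0363). Pde4a, the next of the type 4 phosphodiesterases, was called in all mice after PSD + restraint, at 0.38 (adjusted p = 0.002). So was Rrad, a relative of Gem, at 1.24 (adjusted p = 0.019), named after its values were seen. The remaining 8 relatives, Sik2 and Sik3 among them, were called in none of the 9 comparisons.

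The list of 9 other CREB-responsive genes held the most calls of the 7 lists. Of the names given here, Nr4a1, Nr4a2 and Fosb had the smallest p, and the rest were named after their values were seen. In females 5 of 9 rose after restraint and the same 5 after PSD + restraint (Nr4a1, Nr4a2, Nr4a3, Fosb and Per1), with list medians of 1.62 and 1.94 log2 units. Fos, Junb, Dusp1 and Ppargc1a were not called in these females. Restrained females had 15.5, 15.2, 23.3 and 16.2 CPM of Fos, against 20.3, 44.2, 31.9 and 27.5 CPM in controls. Restrained males, with 322 and 46.9 CPM of Fos, lay above all male controls. In males 5 rose after restraint (Nr4a1, Nr4a2, Fosb, Junb and Dusp1, median 3.21) and 7 after PSD + restraint (median 2.85). The medians of the 6 members in the same comparisons were 1.05, 1.07, 0.70 and 1.14. Nr4a1, the orphan nuclear receptor Nur77 that drives Pomc transcription, rose from 57.2 ± 24.0 to 693 ± 245 CPM in restrained females (SD, n = 4 each), at 3.61 (adjusted p = 0.000275), and to 886 ± 138 CPM from 26.4 ± 15.5 in PSD + restraint males, at 5.07 (adjusted p = 0.000511). Its relative Nr4a2 gave 3.42 (adjusted p = 0.000275) and 4.26 (adjusted p = 0.00122) in these comparisons. Fosb, a subunit of the AP-1 factor, gave 4.06 (adjusted p = 0.000748) and 4.34 (adjusted p = 0.000812). None of the 9 was called after PSD alone. As for the members, males had more of them at an unadjusted p under 0.05 after PSD, 6 of 9 (beside 8.85% of all genes) against 1 of 9 in females (beside 19.8%), DESeq2 called 0 in each, and this difference in counts was not tested.

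**Figure D4:**
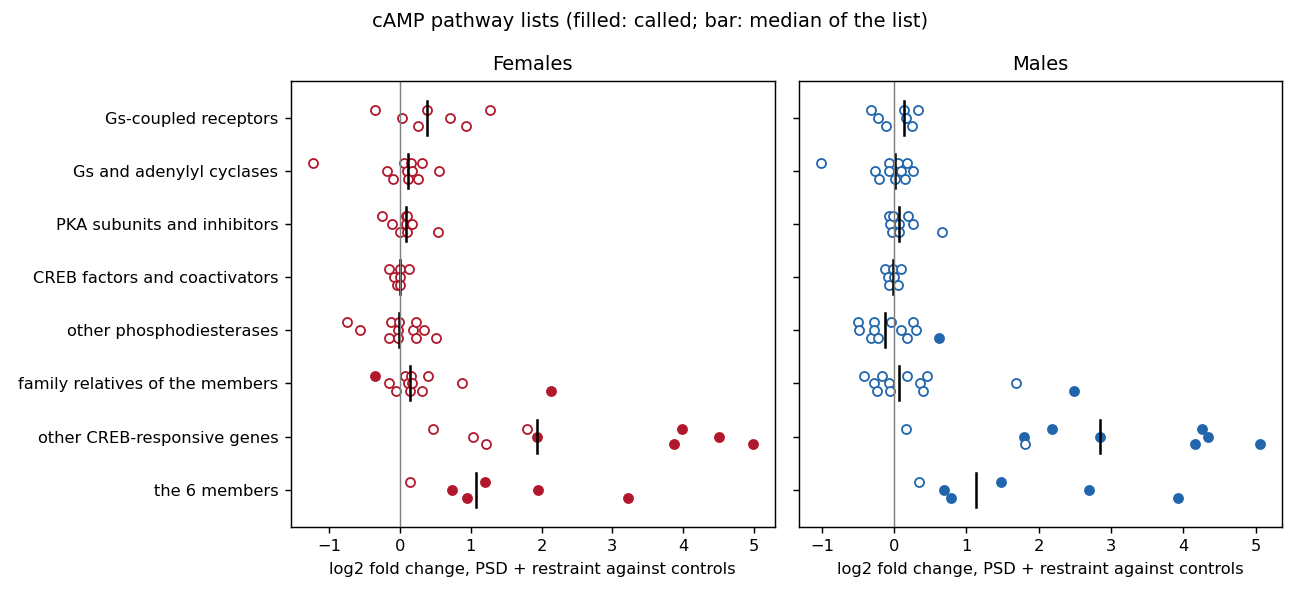
Log2 fold change after PSD + restraint against controls for every tested gene of the 7 lists of the cAMP pathway and for the 6 members, in females (red) and males (blue), with filled points for called genes and black bars for list medians. Receptors, cyclases, kinase subunits and CREB factors have no filled point, and the filled points furthest right belong to the other CREB-responsive genes and the members.

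Each member's pattern over the 28 mice was set beside those of the 17852 genes tested in both sexes by the root mean square (RMS) difference of log2 CPM, after centring each gene on the controls of its own sex. For Gem the closest genes were AK006051, Atf3 and Nr4a2, with RMS differences of 0.51, 0.52 and 0.59 log2 units, where Gem itself lay 2.33 from its controls. Atf3, a stress-induced transcription factor, went from 2.05 ± 0.760 CPM in female controls to 19.8 ± 18.5 after PSD + restraint (SD, n = 4 each). For Sik1 they were Csrnp1 (0.58), Mir335 (0.58) and the AP-1 gene Fosl2 (0.61). For Crem they were Zdbf2 (0.24), the mitochondrial carrier gene Slc25a25 (0.24) and B230216N24Rik (0.25). Rgs2 was closest to the entry named Tmed5_ (0.24), the synaptotagmin gene Syt4 (0.24) and Pard6a (0.25), and Pde4b to Sec14l1 (0.19), the repressor gene Erf (0.19) and Cpeb4 (0.20). Mir335, Tmed5_ and AK006051 were at low levels. Their means were 0.868, 1.69 and 1.76 CPM in female controls and 0.580, 1.44 and 1.71 CPM in male controls. Among the members themselves, Gem and Sik1 were each other's closest at 0.81 and Rgs2 and Pde4b at 0.37, and Crem was closest to Rgs2 at 0.39. The values share the same 28 libraries and are a description, and with library size alone in place of TMM the same 3 genes were named for each member.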

How the data were processed

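Whole pituitary RNA of 28 mice was sequenced as strand-specific, poly(A)-selected libraries. Per the labels and the study's methods, the authors aligned reads to mm10 and made the deposited count table per gene with HTSeq 0.9.1 on UCSC gene models. A second table holds the same samples normalised with DESeq2 1.16.1 and was not used here.

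Raw counts were tested in R 4.3.3 with edgeR 4.0.16 (TMM scaling, filterByExpr, quasi-likelihood F test, Benjamini-Hochberg adjustment). Each sex was fitted with PSD, restraint and their interaction, all mice with sex added, and differences between the sexes with 1 mean per sex and treatment. This left 18059 genes tested in females, 18271 in males and 18936 in all mice. Calls needed an adjusted p of 0.05 and a 1.25-fold change. TPM used mean transcript lengths from GENCODE M21, and 2 prior counts were added for log2 CPM. The fit was also run on simulated counts in which restraint alone changed genes. That run held neither PSD effects nor outlying mice, and its outcome is not given here. The 37 pairs of mice within groups differed by more than counting noise, so no pair was the same library sequenced again. Each mouse counted once, and whether mice that shared a cage or tank were independent was not tested. Alternatives were DESeq2 1.42.0, other scalings, filters and designs, and each mouse left out.

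The members and gene lists were chosen with earlier results of these data known. All members are named, with at most 3 called genes per pathway list (smallest p) and the 3 genes most like each member called within a sex. A gene of the receptor list is not reported here.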

Additional observations from a re-analysis of the deposited data

Results flagged for a closer look

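Dixon's test was applied to the 30 groups of 4 mice (6 genes in 5 groups), where chance alone sets apart about 1 group in 20, and it set apart 3 values. Sik1 stood at 23.0 CPM in male control mouse 1, and the other 3 male controls lay between 9.29 and 10.3 CPM. Rgs2 reached 219 CPM in female restraint mouse 4, above 110.7 to 120.0 CPM in the other 3 females of that group. Pde4d had 25.3 CPM in female restraint mouse 1, and 22.0 to 22.5 CPM in the other 3.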

How the results depend on the processing

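The number of members called moved between settings mainly in males, where the groups held 2 to 4 mice. In males after restraint it went from 2 to 0 with robust estimation and to 0 with the replicate block. It went to 3 with DESeq2, without a filter on low counts and with only the groups compared. After PSD it went from 0 to 1 with DESeq2, and after PSD + restraint from 5 to 3 with the replicate block. For restraint within PSD in males the count of 0 became 3 with DESeq2, 1 without a filter on low counts, and 3 without male control mouse 1 and male PSD mouse 3, a choice made after seeing the data. Members different between the sexes in home cage controls went from 0 to 2 under that choice and to 2 without the 3 mice of unusual marker levels, also chosen after seeing the data. The cause of these changes was not tested. With single mice left out, the counts ran from 2 (without female control mouse 3) to 4 after restraint, from 3 (without control mouse 4 or PSD + restraint mouse 1) to 5 after PSD + restraint and from 3 to 4 for restraint within PSD in females. In males they ran from 0 (without restraint mouse 3) to 3 (without control mouse 1 or PSD mouse 3) after restraint, from 4 (without PSD + restraint mouse 2) to 6 (without control mouse 1) after PSD + restraint and from 0 to 2 (without control mouse 1) for restraint within PSD. In all mice they ran from 4 to 5 after restraint and from 0 to 2 (without female PSD mouse 4) after PSD, and between the sexes in controls from 0 to 2 (without male control mouse 1). Same-numbered mice did not correlate more often than others. Of same-numbered pairs, 2 of 24 in females and 2 of 15 in males correlated above 0.1. Of pairs with different numbers, 11 of 72 and 11 of 38 did. With groups this small, the check cannot exclude pairing. Of 3828 log2 values of members under alternatives, 77 changed sign, none of them a called value, and 25 of 35 called values kept their call under every alternative other than those 2 chosen later. With 2 restrained males, that group's lone mouse in a fit without the other is assumed to vary like the other groups.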
